A study of Mus musculus with 16 samples.

Results

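Bruch's membrane is the thin sheet of matrix between the retinal pigment epithelium (RPE) and the vessels of the choroid, with an elastic layer at its core. The 10 genes followed here build or remodel it: the proteases Mmp2, Mmp14 and Htra1, the protease inhibitor Timp3, elastin (Eln), the cross-linking enzyme Loxl1, the fibulins Fbln5 and Efemp1, and the microfibril proteins Fbn1 and Ltbp2. The members were found by the RefSeq accession that the array files give each probe, which matched 12 probes of 55681 on the array and covered all 10 genes. Fbln5 and Loxl1 had a pair of probes each and the other genes 1 each.

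The 16 samples fall into 4 groups of 4: nm3342 mutants at 1 year, wild types at 1 year, mutants at 1 month and wild types at 1 month. All are labelled male mice on the C57Bl/6J background, and the study examined nm3342 as a possible model for serous detachment, where fluid parts the retina from the RPE. The labels name neither the mutated gene nor the source of the wild types, so the genotype could not be checked on a target gene. The labels count 4 mice per time point, so arrays are read as separate animals. Each sample is RNA of retina and RPE together on 1 single-colour Agilent array, so fewer cells of a type and less RNA per cell cannot be told apart.

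In an elastic fibre, tropoelastin is laid onto a scaffold of fibrillin microfibrils with the help of fibulins, and lysyl oxidase enzymes then cross-link it. Membrane-bound Mmp14 cuts matrix proteins and activates the secreted gelatinase Mmp2, Htra1 is a secreted serine protease, and Timp3 is the inhibitor that stays bound to the matrix. In people, changes in TIMP3 cause Sorsby fundus dystrophy and a change in EFEMP1 causes Malattia Leventinese, both with deposits or thickening at Bruch's membrane, and variation near HTRA1 is linked to age-related macular degeneration.

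Levels below are log2 intensities with the 75th percentile of the array at 0, so levels of different genes are not set against each other. A gene is called where its adjusted p from limma is under 0.05 over all 19022 genes tested, and all adjusted p-values are of this kind unless said otherwise. All 10 genes were well above background on all 16 arrays through the probe used. Rod and RPE markers, which go with the tissue label, were well above background on all 16 arrays except Best1, marked on 1 of 16. So were cornea, skeletal muscle and lens markers, which the label does not name, with Mip of the lens on 15. The mean of the cornea list ran from 1.25 to 5.86 in 1-year wild types. The part of these other tissues in the levels of the 10 genes was not tested. Per array, 82.1% to 89.6% of spots were marked well above background. On 3 arrays (replicates 2 and 3 of the 1-month mutants, replicate 1 of the 1-year mutants) Xist exceeded the Y-linked Ddx3y, against the label of male sex, so results are also given without them. The arrays lay on 2 slides with 2 arrays of every group on each. Array row was not balanced between genotypes. At both ages most mutant arrays lay on row 2 and most wild-type arrays on row 1. Counts with array row in the fit are given in the closing section.

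The stretches before the gene starts are shown for 4 of the 5 genes called in at least 1 of the comparisons that follow. The other, Fbln5, has 2 windows and is not printed. RefSeq promoter windows (GRCm38.p6) matched 7 of the 10 genes, and the 250 bases before the start are printed 5′ to 3′ on the gene's strand. Capitals mark the GC box (GGGCGG, either strand) and the AP-1 motif (TGANTCA, either strand), which do not overlap each other here. The Mmp14 stretch is chr14:54431348-54431597 (plus strand), that of Fbn1 is chr2:125506439-125506688 (minus strand), that of Efemp1 is chr11:28852955-28853204 (plus strand) and that of Htra1 is chr7:130935953-130936202 (plus strand).
Mmp14: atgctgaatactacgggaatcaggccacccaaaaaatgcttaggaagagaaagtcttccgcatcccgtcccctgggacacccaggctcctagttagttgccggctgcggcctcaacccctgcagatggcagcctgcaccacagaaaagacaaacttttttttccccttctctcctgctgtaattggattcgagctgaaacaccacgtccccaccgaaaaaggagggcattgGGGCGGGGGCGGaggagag
Fbn1: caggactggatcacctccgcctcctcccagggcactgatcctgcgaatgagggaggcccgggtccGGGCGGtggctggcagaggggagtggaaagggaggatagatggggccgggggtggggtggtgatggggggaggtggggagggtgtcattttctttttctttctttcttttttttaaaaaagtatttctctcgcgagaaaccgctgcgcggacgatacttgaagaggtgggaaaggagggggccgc
Efemp1: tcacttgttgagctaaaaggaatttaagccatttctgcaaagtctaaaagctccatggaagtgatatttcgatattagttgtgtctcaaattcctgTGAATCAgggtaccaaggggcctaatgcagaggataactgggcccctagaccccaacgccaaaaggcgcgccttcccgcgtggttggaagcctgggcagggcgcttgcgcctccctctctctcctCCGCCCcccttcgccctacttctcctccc
Htra1: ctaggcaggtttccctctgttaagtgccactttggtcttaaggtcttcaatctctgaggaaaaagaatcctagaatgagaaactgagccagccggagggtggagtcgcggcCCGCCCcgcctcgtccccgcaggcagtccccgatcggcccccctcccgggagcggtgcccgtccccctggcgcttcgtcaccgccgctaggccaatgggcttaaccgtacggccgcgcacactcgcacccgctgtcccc

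The Mmp14 stretch held 2 GC boxes next to each other within 19 bases of the start, and the other 3 held 1 GC box each. All 7 genes had a GC box in at least 1 of their windows, though 1 of the 2 Fbln5 windows held none. Of 32851 windows of this length 32.7% hold one, a share per window and not per gene. The genes' windows were 49.6% to 65.6% G or C, against a median of 52.4% over all windows. The AP-1 motif was found in the Efemp1 stretch, 154 to 148 bases before the start, and in 6.75% of all windows. The TATA box (TATAAA), the TEAD motif (GGAATG) and the E-box (CACGTG) were also searched on either strand and matched in none of the 7 genes' windows, against 12.4% of all windows for the TATA box, 12.6% for the TEAD motif and 6.02% for the E-box. These matches describe letters and not bound sites.

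At 1 month, which asks how mutant tissue differs early, the genes shifted mostly upward in mutants. Mmp14 rose 1.74-fold and Fbn1 1.59-fold, and 9 of the 10 genes had positive changes, where 54.0% of all genes did. These 2 calls among 10 genes compare with 2.72% of all genes called (2.03% called higher). In 6 of the 10 genes all mutant arrays lay above all wild-type arrays, against 5.85% of all genes. The median log2 change was 0.535 over the 10 genes and 0.02 over all genes.

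Among the proteases, Mmp14 was at -1.54, -1.69, -1.57 and -1.33 on the 1-month mutant arrays, against -2.43, -2.19, -2.05 and -2.64 on the 1-month wild-type arrays. The 4 mutant values lie above the 4 wild-type values with a clear gap. The log2 change was 0.80 ± 0.16 (SE, adjusted p = 0.016), and it was 0.80 on slide 1 and 0.79 on slide 2. Without the 3 arrays of opposite sex pattern it was 0.90 (adjusted p = 0.0947), and without wild-type 1-month replicate 1 it was 0.76 (adjusted p = 0.0515).

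Mmp2, which Mmp14 activates, was at -0.64, -0.91, -0.80 and -0.68 in 1-month mutants, against -1.70, -1.04, -1.09 and -1.83 in 1-month wild types. The groups did not overlap, but the change of 0.66 ± 0.29 did not pass (adjusted p = 0.304). Its error comes from the spread over all 16 arrays. For Mmp2 the SD was 0.12 in 1-month mutants and 0.41 in 1-month wild types. It was 0.57 in 1-year mutants and 0.54 in 1-year wild types (n = 4 each). Htra1 was at 3.99 ± 0.11 in 1-month mutants and 4.20 ± 0.22 in 1-month wild types (SD, n = 4 each), a change of -0.21 ± 0.13 (limma adjusted p = 0.477), the 1 negative value among the 10.

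The inhibitor Timp3 was at 4.66 ± 0.12 in 1-month mutants and 4.603 ± 0.11 in 1-month wild types (SD, n = 4 each). Its change of 0.05 had a 95% confidence interval of -0.165 to 0.275, and the groups overlapped.

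Among the microfibril genes, Fbn1, which encodes fibrillin-1, was at 0.72, 0.76, 0.68 and 0.87 in 1-month mutants, against -0.42, 0.35, 0.35 and 0.08 in 1-month wild types. The mutants formed a tight group above every wild type. The change was 0.67 ± 0.16 (adjusted p = 0.040), with 0.85 on slide 1 and 0.48 on slide 2. It did not pass without the 3 arrays of opposite sex pattern (0.70, adjusted p = 0.23), with that pattern as a covariate (0.73, adjusted p = 0.0728), or without any one of 8 arrays named in the closing section. Ltbp2, a fibrillin-binding protein of the latent TGF-beta binding family, overlapped fully, with 0.86 ± 0.67 in 1-month mutants and 0.79 ± 0.54 in 1-month wild types (SD, n = 4 each).

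The fibulin Fbln5, which tethers tropoelastin, was at 1.70, 1.31, 1.34 and 1.58 in 1-month mutants, against 0.38, 1.14, 1.17 and 0.95 in 1-month wild types. All mutants lay above all wild types, but the change of 0.58 ± 0.16 did not pass (adjusted p = 0.0712). Its other probe was well above background on 3 of 16 arrays and was not tested. Efemp1 (fibulin-3) was at 3.01, 3.07, 2.63 and 3.14 in 1-month mutants, against 1.68, 2.46, 2.55 and 2.50 in 1-month wild types. The lowest mutant lay just above the highest wild type, and the change was 0.66 ± 0.19 (adjusted p = 0.0959).

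Of the elastin side, Loxl1 was at 1.01 ± 0.17 in 1-month mutants and 0.52 ± 0.26 in 1-month wild types (SD, n = 4 each), without overlap (0.49 ± 0.16, limma adjusted p = 0.143). Its other probe moved by a like amount (0.47 ± 0.16, adjusted p = 0.22 over all probes), with overlap. Elastin itself was at -2.80 ± 0.22 in 1-month mutants and -3.08 ± 0.40 in 1-month wild types (SD, n = 4 each), and the groups overlapped (0.29 ± 0.20, limma adjusted p = 0.538).

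**Figure D1:**
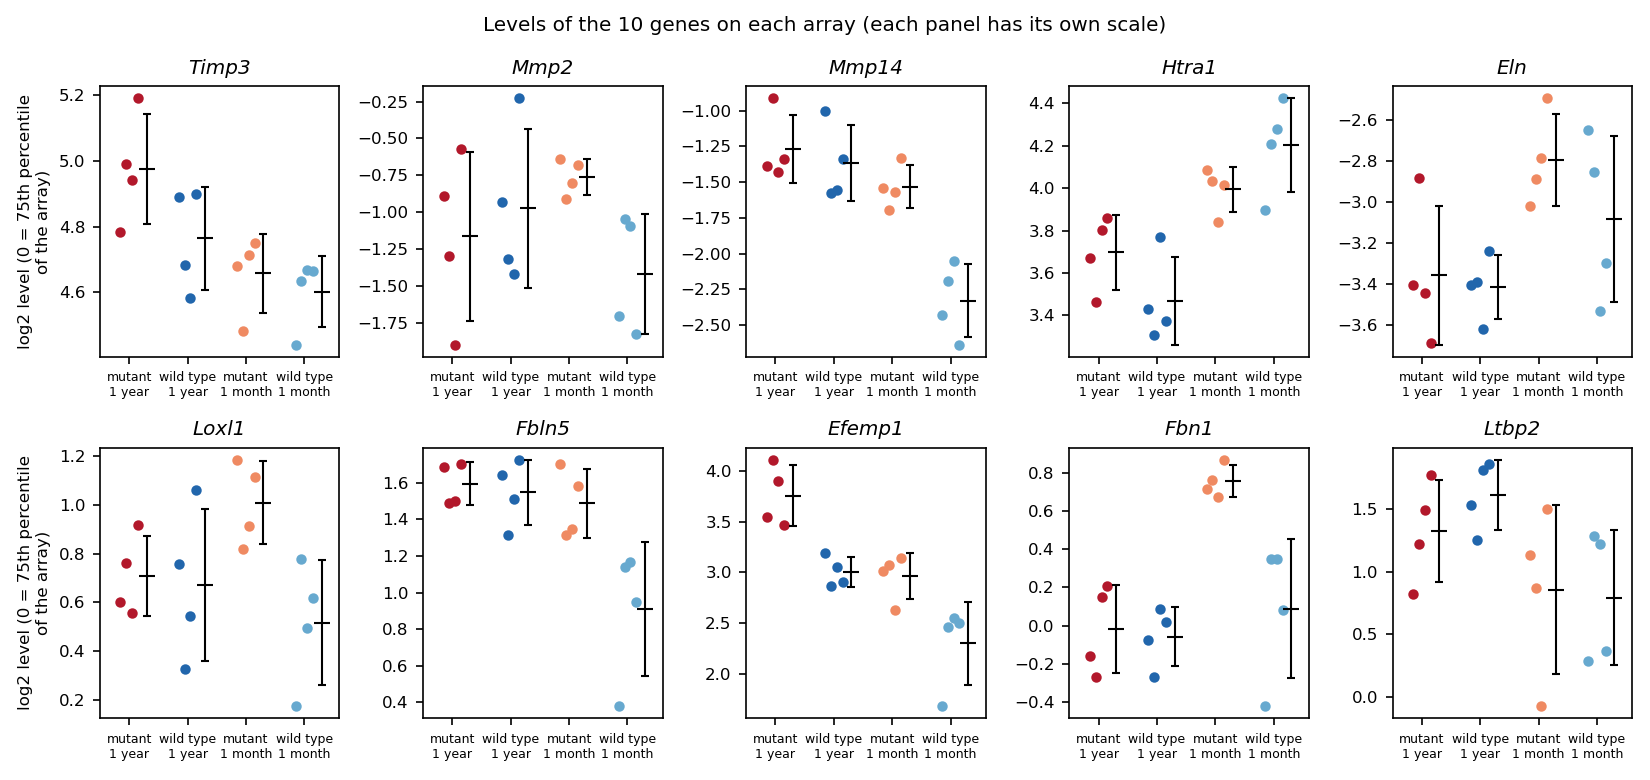
Log2 level (vertical axis, 0 at the 75th percentile of the array) of each gene on each array, with points for arrays and bars for the mean ± SD of 4 arrays per group. Mmp14 and Fbln5 are low in 1-month wild types alone, Fbn1 is high in 1-month mutants alone (0.68 to 0.87), and Efemp1 is higher in mutants than in wild types at both ages.

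Markers of other cell types moved in the same comparison. Of the 8 fibroblast markers 3 were called higher in 1-month mutants (Col3a1, Postn and Lum), and the list's mean level was 2.64 to 2.90 in 1-month mutants and 1.23 to 1.92 in 1-month wild types, while the changes of Dcn (-0.01) and Pdgfra (-0.03) of that list, named after their values were seen, were near 0. Of the 8 melanin genes 5 were called higher (2.33 to 2.94 in 1-month mutants, 1.53 to 2.25 in 1-month wild types), of 7 microglia and macrophage markers 4 (0.45 to 0.59, against -0.10 to -0.03), and of 7 RPE markers 3 (3.63 to 4.07, against 3.19 to 3.72). Of 6 Muller glia markers 2 were called (Rlbp1 and Abca8a), with list means of 2.47 to 2.84 in 1-month mutants and 2.31 to 2.59 in 1-month wild types, and Kdr of the endothelial and Acta1 of the muscle markers were called too. The 4 erythrocyte genes tested were all higher on average in 1-month mutants (median change 2.29, 0 called by limma, 3 at an unadjusted p under 0.05), and their list means did not overlap (-0.132 to 3.99 in 1-month mutants, -1.73 to -0.268 in 1-month wild types). All 8 fibroblast markers were well above background on all 16 arrays, a mark that 82.1% to 89.6% of spots carried per array. Whether the fibroblast signal came from the labelled tissue was not tested. The part of all these markers in the shifts of Mmp14, Fbn1 and the other members was not tested. Wild-type 1-month replicate 1 was the lowest of its group in the mean of the 10 genes (0.37, against 0.58 to 0.88 on the other 1-month wild types) and in the fibroblast mean (1.23, against 1.72 to 1.92).

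At 1 year, the same comparison in older animals called 0 of the 10 genes by limma, where 0.857% of all genes were called. At an unadjusted p under 0.05, 1 of the 10 passed, Efemp1, where 11.4% of all genes did. Efemp1 was at 3.55, 4.11, 3.90 and 3.47 in 1-year mutants, against 3.19, 2.86, 3.05 and 2.905 in 1-year wild types. Every mutant lay above every wild type, the only one of the 10 genes without overlap at this age, where 7.83% of all genes had none. Its change was 0.75 ± 0.19 (adjusted p = 0.0906).

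Apart from Efemp1, the genes without overlap at 1 month overlapped between genotypes at 1 year. Mmp14 was at -1.27 ± 0.24 in 1-year mutants and -1.37 ± 0.27 in 1-year wild types, and Fbn1 at -0.02 ± 0.23 in 1-year mutants and -0.06 ± 0.16 in 1-year wild types (SD, n = 4 each). Fbln5 changed by 0.05 ± 0.16, Loxl1 by 0.04 ± 0.16 and Eln by 0.06 ± 0.20, each with overlapping groups. Mmp2 was lower on average in 1-year mutants (-0.19 ± 0.29) and Ltbp2 too (-0.29 ± 0.32), within the spread. Timp3 (0.21 ± 0.10, adjusted p = 0.465) and Htra1 (0.23 ± 0.13, adjusted p = 0.552) were higher on average, with overlapping groups. At this age 0 of 8 fibroblast markers were called by limma (1.53 to 2.47 in 1-year mutants, 1.77 to 2.66 in 1-year wild types). The rod list did not overlap (5.80 to 6.01 in 1-year mutants, 6.04 to 6.16 in 1-year wild types), with Gnat1 of its 6 genes called lower. Of the 8 melanin genes 7 were lower on average (0 called by limma, 5 at an unadjusted p under 0.05). Cx3cr1 of the microglia and Kdr of the endothelial markers were called higher. Only 2 of the 7 endothelial markers had positive changes (median -0.11), against 5 of the 7 microglia and macrophage markers. The part of these lists in the 1-year values, Efemp1 included, was not tested.

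The test of the difference between the 1-year and 1-month genotype effects called 0 of the 10 genes by limma, against 0.421% of all genes. At an unadjusted p under 0.05, 4 of the 10 passed, against 10.8% of all genes. The values were -0.70 ± 0.23 for Mmp14 (adjusted p = 0.227), -0.63 ± 0.23 for Fbn1 (adjusted p = 0.285), -0.53 ± 0.22 for Fbln5 (adjusted p = 0.385) and 0.44 ± 0.18 for Htra1 (adjusted p = 0.382). A genotype effect that differs with age is therefore not shown for any of the 10 genes.

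**Figure D2:**
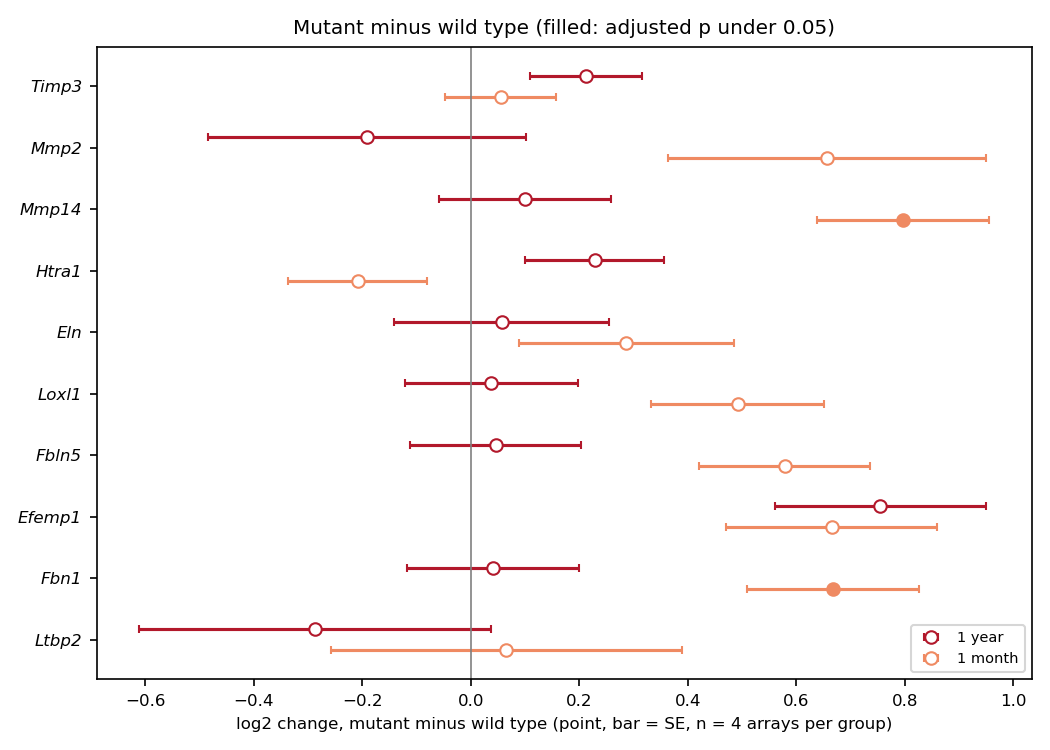
Log2 change, mutant minus wild type (horizontal axis), at 1 year and 1 month for the 10 genes. Bars are 1 SE of the limma fit over all 16 arrays (4 per group), and filled points have adjusted p under 0.05. At 1 month Mmp14 (0.80) and Fbn1 (0.67) are filled, and at 1 year Efemp1 (0.75) lies farthest from 0.

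Efemp1 was higher in mutants at both ages, so its mean effect over both was tested in the same fit. This test was chosen after its values were seen. The averaged change was 0.71 ± 0.14, a 1.64-fold difference (adjusted p = 0.012, against 2.38% of all genes called), and the change at 1 year exceeded that at 1 month by only 0.09 ± 0.27. Efemp1 was the 1 gene of the 10 called in this test, and Mmp14 was next (0.45 ± 0.11, adjusted p = 0.0529). In the same averaged test 3 of 7 microglia, 2 of 6 Muller glia and 2 of 8 fibroblast markers were called higher. Kdr, the RPE marker Slc16a8 and Acta1 were called higher too. Only 4 of the 7 RPE markers had positive averaged changes (median 0.03), and Rpe65 was at -0.42 ± 0.12. Of the 7 endothelial markers 5 were positive (median 0.04). The part of all these markers in the Efemp1 value was not tested. The averaged Efemp1 change was 1.04 on slide 1 and 0.38 on slide 2. Without the 3 arrays of opposite sex pattern it was 0.80 (adjusted p = 0.0418), and it remained called when any 1 of the 16 arrays was left out (0.61 to 0.76, largest adjusted p = 0.0322).

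The comparison of 1 year with 1 month within each genotype asks how the genes change with age. In wild types 4 of the 10 genes were called, against 12.4% of all genes (7.31% higher, 5.05% lower), and the groups did not overlap in the same 4, against 18.9% of all genes. Mmp14 rose 1.95-fold (0.96 ± 0.16, adjusted p = 0.00109), Efemp1 1.63-fold (0.70 ± 0.19, adjusted p = 0.0286) and Fbln5 1.56-fold (0.64 ± 0.16, adjusted p = 0.0155) in 1-year wild types. Htra1 fell by 0.73 ± 0.13 on the log2 scale (adjusted p = 0.00174). The 1-month wild-type arrays serve both here and in the 1-month genotype comparison, so the rise of Mmp14 with age and its rise in 1-month mutants are not independent. Between the ages the wild types also differed in lens markers (-3.24 to 1.42 at 1 year, 3.99 to 4.6 at 1 month) and in microglia and macrophage markers (0.59 to 1.23 at 1 year, -0.10 to -0.03 at 1 month). Melanin genes did so too (2.47 to 2.98 at 1 year, 1.53 to 2.25 at 1 month, 4 of 8 called higher). All 7 RPE markers tested had positive changes (median 0.42) with Ttr called, though the list means overlapped. Rlbp1 of the Muller glia, Emcn and Plvap of the endothelial, Rgs5 of the pericyte and Myh4 of the muscle markers were called higher. Positive changes in those lists were 4 of 6, 5 of 7, 6 of 7 and 5 of 6. Dcn and Lum of the 8 fibroblast markers were called higher. Of those 8 markers 5 had positive changes, and Col1a1 was at -0.67 ± 0.34. The fibroblast list means overlapped (1.77 to 2.66 at 1 year, 1.23 to 1.92 at 1 month). The part of any of these lists in the rises of Mmp14, Efemp1 and Fbln5 or the fall of Htra1 was not tested.

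The values behind these calls are as follows. Mmp14 was at -0.998, -1.58, -1.555 and -1.34 in 1-year wild types, against the 1-month wild-type values given above. All 1-year wild types therefore lay above all 1-month ones. Fbln5 was at 1.64, 1.315, 1.51 and 1.72 in 1-year wild types, also above each 1-month wild type. Htra1 was at 3.43, 3.31, 3.77 and 3.37 in 1-year wild types, against 3.90, 4.21, 4.28 and 4.42 in 1-month wild types. Here each older array lay below each younger one, with a mean change of -0.515 on slide 1 and -0.95 on slide 2.

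In mutants 2 of the 10 genes were called with age, against 6.70% of all genes (3.77% higher, 2.93% lower), and 3 did not overlap, against 13.8% of all genes. Efemp1 rose by 0.79 ± 0.19 (adjusted p = 0.0236) in 1-year mutants. Fbn1 fell by 0.77 ± 0.16 (adjusted p = 0.0084), and its 4 older mutants (-0.16, -0.27, 0.15 and 0.21) lay well below its 4 younger ones (0.68 to 0.87). In the same comparison 4 of 8 fibroblast markers were called lower in 1-year mutants (Col1a1, Col1a2, Col3a1 and Postn). Dcn (0.42 ± 0.21) and Lum (0.23 ± 0.27) of that list were higher on average. The list means did not overlap (1.53 to 2.47 in 1-year mutants, 2.64 to 2.90 in 1-month mutants). Called higher were 3 of 7 microglia and macrophage markers (0.989 to 1.12 in 1-year mutants, 0.447 to 0.591 in 1-month mutants), and called lower were 2 of 6 rod and 2 of 8 melanin genes. Aqp4 of the Muller glia, Plvap of the endothelial and Rgs5 of the pericyte markers were called higher too. Positive changes in those lists were 3 of 6, 4 of 7 and 6 of 7. Of the 7 RPE markers 0 had positive changes and limma called 0. The part of these lists in the Fbn1 and Efemp1 changes was not tested. Timp3, the third gene without overlap, was higher in 1-year mutants (0.32 ± 0.10) and missed the threshold (adjusted p = 0.0843). Without the 3 arrays of opposite sex pattern neither Efemp1 (0.75, adjusted p = 0.235) nor Fbn1 (-0.76, adjusted p = 0.162) was called. In 1-year mutants Mmp14 changed by 0.27 ± 0.16 (adjusted p = 0.366) and Htra1 by -0.30 ± 0.13 (adjusted p = 0.203). Whether either age change differs between genotypes is the same test as above, and neither passed it.

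**Figure D3:**
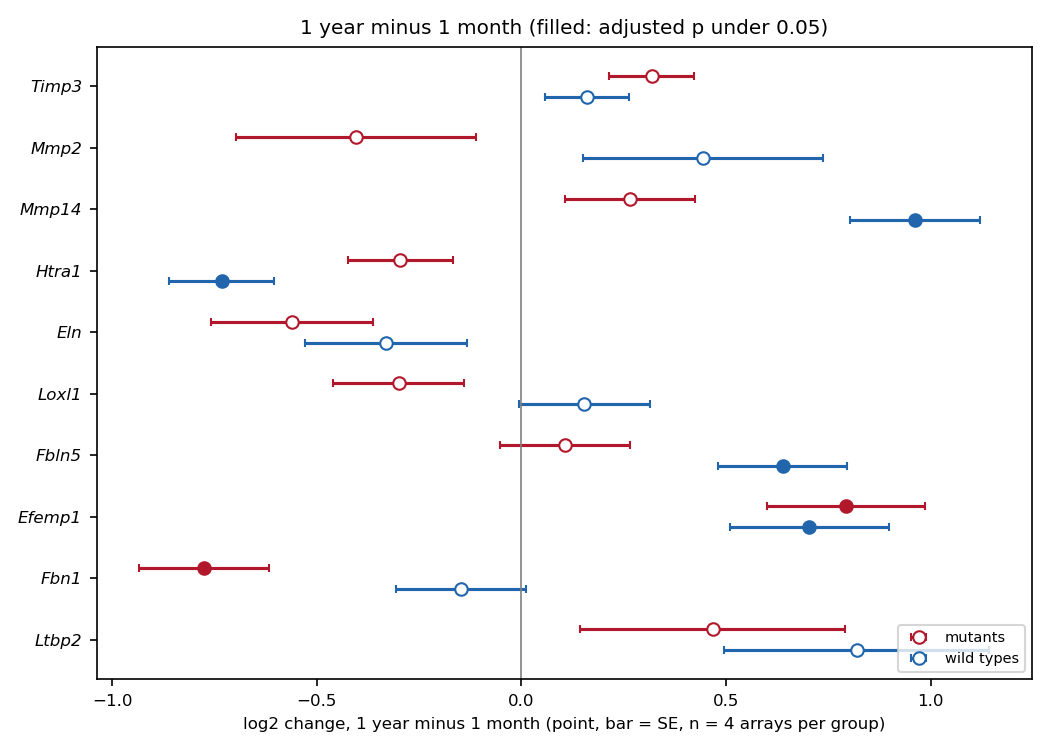
Log2 change, 1 year minus 1 month (horizontal axis), in mutants and wild types for the 10 genes. Bars are 1 SE of the limma fit over all 16 arrays (4 per group), and filled points have adjusted p under 0.05. Efemp1 is filled in both genotypes (0.79 in mutants, 0.70 in wild types), Mmp14 (0.96), Fbln5 (0.64) and Htra1 (-0.73) in wild types, and Fbn1 (-0.77) in mutants.

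The order of the group means differed between genes. For Mmp14 and Fbln5 the 1-year mutants, 1-year wild types and 1-month mutants overlapped with one another, and the 1-month wild types alone lay below them. For Fbn1 the 1-month mutants lay above the other groups, which overlapped. Efemp1 ran from 3.76 ± 0.30 in 1-year mutants through 3.003 ± 0.15 in 1-year wild types and 2.96 ± 0.23 in 1-month mutants to 2.30 ± 0.41 in 1-month wild types (SD, n = 4 each), with overlap only between the middle groups. Htra1 was highest in 1-month wild types and lowest in 1-year wild types, and the groups next to each other in its order overlapped. Eln, Mmp2, Ltbp2, Loxl1 and Timp3 had no group apart from all others.

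The rest of the elastic fibre machinery was read from a list of 16 further genes. At 1 month 3 of the 16 were called higher in mutants and 0 lower, where 2.03% of all genes were called higher. Of the 16 changes 15 were positive, against 54.0% of all genes, and the median was 0.29 against 0.02 over all genes. The list means per array overlapped narrowly (-0.137 to 0.21 in 1-month mutants, -0.722 to -0.113 in 1-month wild types). The elastin interface protein Emilin2 rose by 0.84 ± 0.18 (adjusted p = 0.0216), fibulin-2 (Fbln2) by 0.57 ± 0.14 (adjusted p = 0.0468) and the lysyl oxidase relative Loxl2 by 0.50 ± 0.11 (adjusted p = 0.033). Fbln1 changed by 0.03 ± 0.28, and Lox, named after its values were seen as the 1 gene of the list with a negative change, by -0.49 ± 0.21. At 1 year limma called 0 of the 16, against 0.857% of all genes, and 1 passed an unadjusted p under 0.05, against 11.4%. The median was -0.04 against -0.01 over all genes. With age, 3 of 16 were called in mutants, all lower, against 6.70% of all genes, and 3 in wild types, 2 higher and 1 lower, against 12.4% of all genes.

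**Figure D4:**
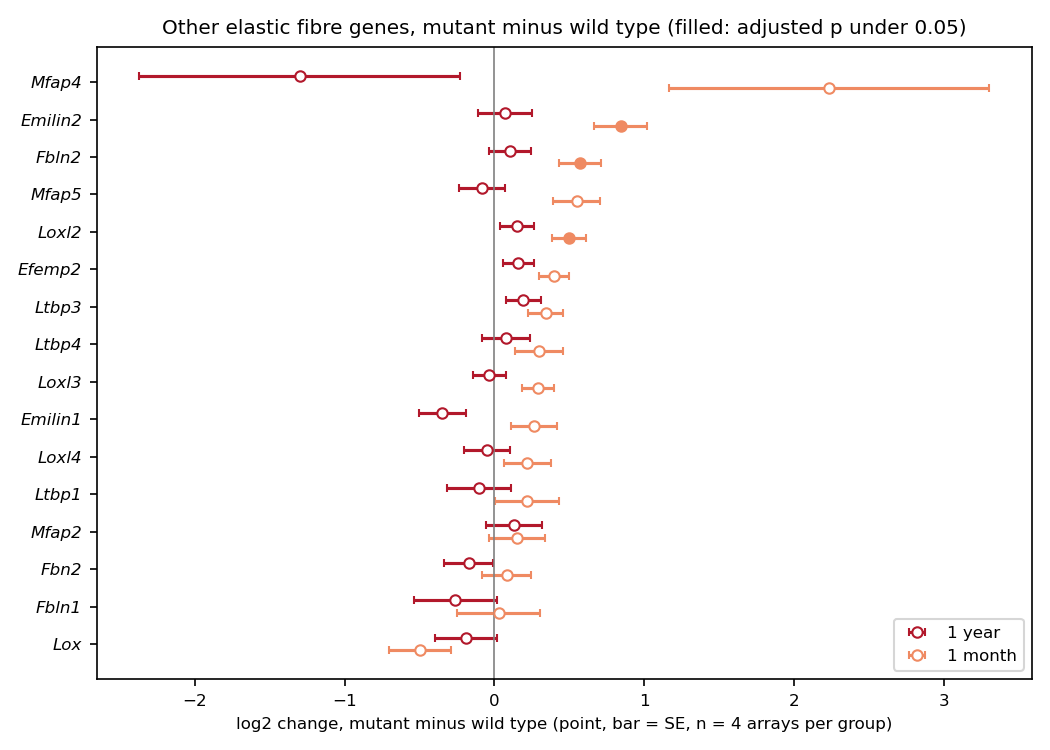
Log2 change, mutant minus wild type (horizontal axis), at 1 year and 1 month for the 16 further elastic fibre genes, ordered by the 1-month change. Bars are 1 SE of the limma fit over all 16 arrays (4 per group), and filled points have adjusted p under 0.05. At 1 month 15 of the 16 points lie right of 0, with Emilin2, Fbln2 and Loxl2 filled, while Mfap4 (2.23) is farther out with a wide error.

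Of 23 further proteases and inhibitors 22 were tested. Between genotypes limma called 0 at either age, against 2.72% of all genes at 1 month and 0.857% at 1 year. At an unadjusted p under 0.05, 4 passed at 1 year, against 11.4% of all genes. At 1 month 4 passed too, and the share of all genes is not given here. Their 1-month median was 0.02, as was that of all genes. Mmp3 changed by -0.29 ± 0.48 at 1 month and -0.83 ± 0.48 at 1 year, and Mmp7 by 0.22 ± 0.16 and -0.15 ± 0.16. With age, 5 of the 22 were called in mutants (4 higher, 1 lower), against 6.70% of all genes, and 5 in wild types (all higher), against 12.4% of all genes. Mmp3, which cleaves a wide range of matrix proteins, rose by 2.76 ± 0.48 in 1-year mutants (adjusted p = 0.00288) and by 3.30 ± 0.48 in 1-year wild types (adjusted p = 0.000396). The soluble inhibitor Timp1, named after its values were seen as a relative of Timp3, rose by 1.52 ± 0.24 in 1-year mutants (adjusted p = 0.0015) and by 2.18 ± 0.24 in 1-year wild types (adjusted p = 3.8e-05), where Timp3 changed by 0.32 ± 0.10 and 0.16 ± 0.10.

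**Figure D5:**
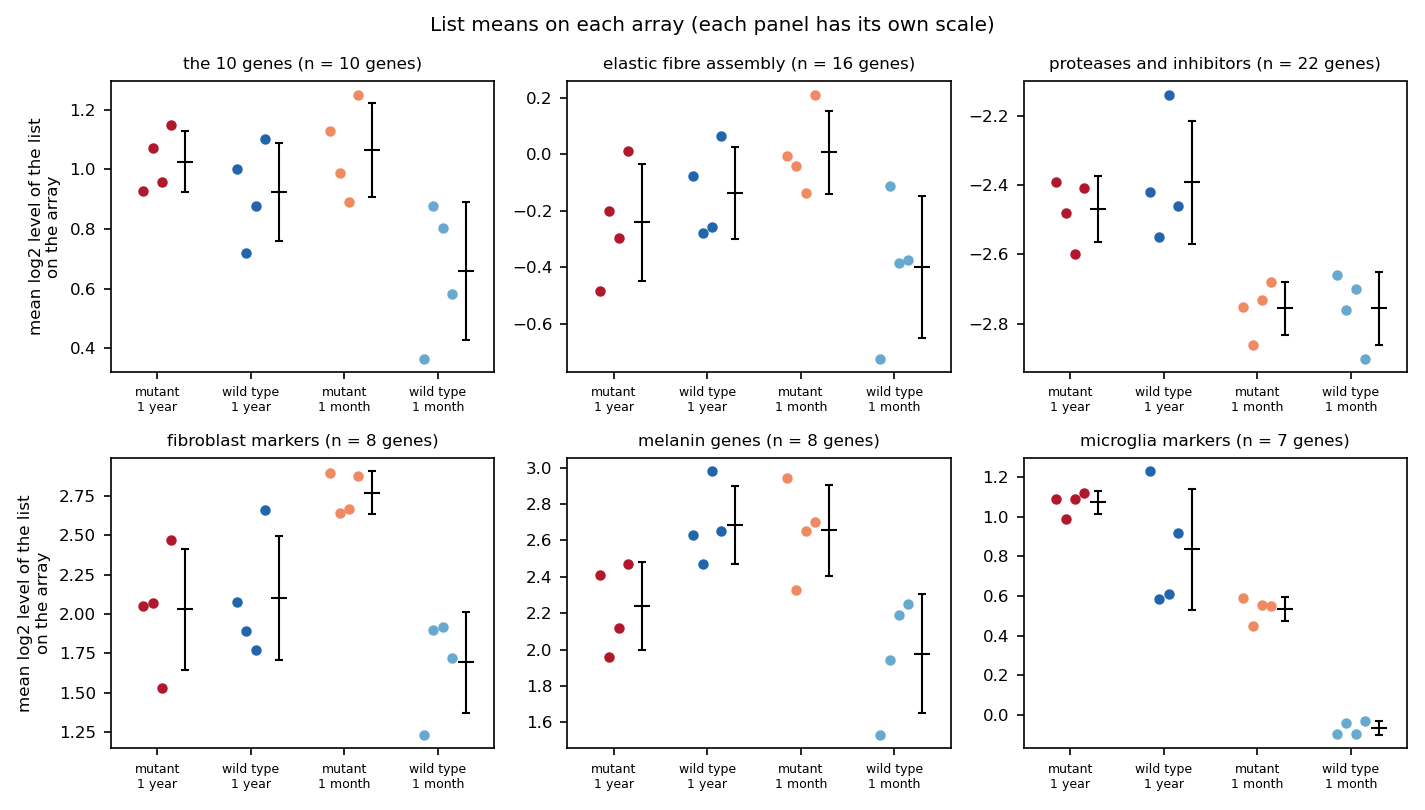
Mean log2 level of each gene list (vertical axis) on each array, with points for arrays and bars for the mean ± SD of 4 arrays per group. The 10 genes are apart between genotypes at 1 month by a narrow gap (0.89 to 1.25 in mutants, 0.366 to 0.877 in wild types). The fibroblast markers (2.64 to 2.90 in 1-month mutants, 1.23 to 1.92 in 1-month wild types), melanin genes and microglia markers do not overlap there either. The mean of the proteases and inhibitors differs by age. The median age change of its 22 genes is 0.07 in mutants and 0.14 in wild types, with 13 of 22 positive in each.

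For each member, the gene whose level followed it most closely over the 16 arrays was looked up. Over arrays that share groups and slides, the best match by Pearson r was Poglut3 for Mmp14 (0.969), Fbln1 for Ltbp2 (0.953), the procollagen processing enhancer Pcolce for Fbln5 (0.95), Tradd for Efemp1 (0.94), the procollagen protease Adamts2 for Mmp2 (0.935), Npl for Htra1 (0.934), Ccdc80 for Loxl1 (0.928), Loxl2 for Fbn1 (0.924), Gorasp2 for Eln (0.893) and Pld2 for Timp3 (0.892). Among the members, Mmp14 and Fbln5 (0.825) and Mmp14 and Efemp1 (0.799) were the most alike, and Mmp14 and Htra1 (-0.716) ran opposite. Mmp14 and Fbn1, both called higher in 1-month mutants, had an r of 0.01. These correlations describe 16 arrays in 4 groups and carry no test.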

How the data were processed

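The members, gene lists and rules were chosen with earlier results of these data known. The deposited array files give each spot's Cy3 intensity after background subtraction. Version 11.0.1.1 of Agilent Feature Extraction made them, as the headers and the submitters' processing notes state. The authors' deposited log2 matrix is quantile normalized, judged from its values, and its software is not given in the sources used here. Spot marks of the other columns, per the file headers, flag outliers, saturation and signal well above background.

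Computed here: log2 of the processed intensity minus the array's 75th percentile, without outlier spots, averaged per probe. Accessions matched RefSeq (GRCm38.p6, for names) for 27235 of 55681 probes. A probe was kept if marked well above background on 4 or more of 16 arrays, and the probe with the highest mean stood for a gene, giving 19022 genes. limma 3.58.1 (R 4.3.3) fitted 4 group means over 16 arrays, with Benjamini-Hochberg adjustment, two-sided, and was tested on simulated data. Errors beside changes are standard errors, and the number of arrays limits precision. The labels say neither how mice were paired nor a batch. Alternatives covered background correction (on the median signal, the mean signal not being used), scaling, filters, probes, slide, array row, sex pattern and single arrays left out. Named genes are the 10 members, from the pathway lists the called genes of each genotype comparison and the first 2, and the best-correlated gene of each member.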

Additional observations from a re-analysis of the deposited data

Results flagged for a closer look

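Of 40 groups of 4 arrays (10 genes in 4 groups), 2 had an array far from the others, about as many as chance gives at 1 group in 20. Both lie on wild-type 1-month replicate 1. Efemp1 was 1.68 on that array, against 2.46 to 2.55 on the other 3. Timp3 was 4.44, against 4.64 to 4.67. Without this array the 1-month Efemp1 change was 0.46 (adjusted p = 0.231) and its 1-year change passed the threshold (0.75, adjusted p = 0.0261).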

How the results depend on the processing

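The count of the 10 genes called moved as follows. For mutants against wild types at 1 month (2 called), it was 0 on slide 1 alone, 0 on slide 2 alone, 0 without the 3 arrays of opposite sex pattern and 0 with the arrays of these groups alone, 1 with the sex pattern as a covariate, 3 with normexp, slide as a block or array row, 1 with the replicate number as a block, and 0 to 2 when 1 array was left out. It was 0 without wild-type 1-month replicate 1. Fbn1 lost its call without any 1 of the 4 mutant 1-month arrays, replicates 1 and 4 of the 1-month wild types, or replicate 1 of either 1-year group (adjusted p = 0.051 to 0.0979). At 1 year (0 called) it was 1 with array row and 0 to 1 with 1 array left out. For the average of both ages (1 called) it was 2 with quantile normalization, the deposited matrix, the filter on all 16 arrays or array row, 0 on either slide alone, and 1 to 2 with 1 array left out. For age in mutants (2 called) it was 0 on either slide alone and 0 without the 3 arrays, and 1 to 2 with 1 array left out. For age in wild types (4 called) it was 0 on slide 1 alone, 2 on slide 2 alone, 2 with the arrays of these groups alone, 3 with the replicate block, and 3 to 4 with 1 array left out. The age call of Efemp1 was lost in wild types without 1-month replicate 1 (0.50, adjusted p = 0.0662). The difference of genotype effects gave 0 throughout, and no call reversed. Replicate numbers did not pair the arrays (correlations of -0.537 to 0.173). The causes of these moves were not tested. Slides alone hold 2 arrays a group.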
